A study of Mus musculus with 14 samples.

Results

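The added loss of CCR2 was examined in mature colonic macrophages that already lacked the interleukin-10 (IL-10) receptor. The comparison holds 8 of the 14 libraries of the series, 4 from DKO mice (*Cdcs1*, *Il10ra* -/-, *Ccr2* -/-) and 4 from IL10RAKO mice (*Cdcs1*, *Il10ra* -/-), chosen by the genotype in their labels. All mice were 5 weeks old, on a C57BL/6 background congenic for the colitis susceptibility locus *Cdcs1*, and both groups lacked *Il10ra* in every cell. The *Ccr2* allele came from the B6.129S4 targeted line Ccr2tm1Ifc and was also carried by every cell, so the macrophages and all cells around them lacked both receptors in DKO mice. Each library was made from the macrophages of 1 mouse, sorted from colon and cecum as CD45+, Ly6G-, CD103-, CD64+, CD11b+, MHCII+ and Ly6C- cells, which removes the Ly6C+ immature cells before sequencing. Reference values came from 4 WT mice (*Cdcs1*) and from 1 CCR2KO mouse (*Cdcs1*, *Ccr2* -/-), which has no replicate and entered no test. A further WT mouse, WT mouse 4, is not among the libraries of the authors' second table and entered the fit only as an alternative. Mice are numbered within a genotype, and the numbers do not pair them.

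CCR2 is the receptor for the chemokines CCL2, CCL7 and CCL12, and Ly6C-high monocytes need it to leave the bone marrow and to enter tissues. In the colon these monocytes mature through Ly6C+MHCII+ intermediates into Ly6C-MHCII+ macrophages, which lose monocyte genes and gain *Cx3cr1*. A smaller part of the gut macrophages, often marked by TIM-4 (*Timd4*) and CD4, is kept up locally with little monocyte input, and *Lyve1* and *Folr2* mark macrophages along vessels and in deeper layers. IL-10 signalling restrains inflammatory genes in macrophages that arrive from blood. *Ccr2* aside, the genotypes differed in few single genes, with *2010315B03Rik* and *Ccl24* raised and *G530011O06Rik* and *Thbs3* lowered in DKO mice. *G530011O06Rik* passed in 23 of 23 alternative settings and *2010315B03Rik* in 22 of 23. *Ccl24* passed in 20 of 23 and *Thbs3*, with few reads, in 13 of 21. Type I interferon and perivascular-type genes had median log2 fold changes of −0.45 and −0.55 beside −0.01 for all genes. Genes of immature inflammatory macrophages and of the respiratory chain had −0.05 and −0.04. Of the 23 perivascular-type genes 3 had a 95% interval within −1 and 1, as did 9 of the 15 type I interferon genes and 63.4% of all genes. In bulk libraries of sorted cells, fewer cells of a type and less RNA of that type per cell cannot be told apart.

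The targeted genes and the defining markers were examined before the gene sets. *Il10ra* was at 7.03, 6.54, 11.2 and 4.89 CPM (read counts scaled to a common library size, with TMM factors) in IL10RAKO mice 1 to 4 and at 6.63, 3.61, 7.59 and 3.41 CPM in DKO mice 1 to 4, against 217 to 379.6 CPM in WT mice. *Ccr2* was at 627, 361, 379.9 and 535 CPM in IL10RAKO and 3.92, 5.79, 6.68 and 6.28 CPM in DKO mice, a log2 fold change of −6.39 ± 0.26 (± SE of the fit, adjusted p = 6.55e-09 from edgeR). Both genes matched the labels in every mouse. The defining genes of gut macrophages were high in both groups, with *Csf1r*, the receptor for the macrophage growth factor, at 2283 to 3288 CPM in IL10RAKO and 1998 to 4101 CPM in DKO mice. *Fcgr1*, which encodes the sorted antigen CD64, was at 116 to 239.9 and 101 to 152 CPM. *Ly6c2*, the gene of the antigen that was sorted against, was still detected at 38.4 to 177 CPM in IL10RAKO and 74.9 to 89 CPM in DKO mice, against 5.8 to 7.64 CPM in WT mice.

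Between 15473135 and 20347283 reads were counted per IL10RAKO mouse and between 14054105 and 21216468 per DKO mouse (exact permutation test, p = 0.943, adjusted p = 0.943). At least 1 read was found on 14670 to 15181 and on 14550 to 15450 genes (exact permutation test, p = 0.943, adjusted p = 0.943). No library was a copy of another, as their counts differed by far more than sampling noise within each genotype (chi-square divided by its degrees of freedom at least 31.9). *Xist*, which female cells transcribe, was at 43.6, 183, 0 and 0 CPM in IL10RAKO mice and at 0, 0, 0 and 82.4 CPM in DKO mice. The labels give no sex, and by this gene 2 of 4 IL10RAKO and 1 of 4 DKO mice were female. With *Xist* as a covariate 6 genes passed again, the same 6.

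Few single genes separated the genotypes. Of 13136 tested genes 6 passed (0.0457%), of which 2 rose in DKO (0.0152%) and 4 fell (0.0305%) at an adjusted p-value under 0.05 in the quasi-likelihood test of edgeR, with 12 libraries and 3 genotypes in the fit. With no adjustment, 388 genes (2.95%) were at p under 0.05, 137 of them higher (1.04%) and 251 lower (1.91%). More were higher than lower without IL10RAKO mouse 3 (291 and 217), without DKO mouse 1 (367 and 309) and with scaling by library totals (218 and 168). Every DKO mouse lay above every IL10RAKO mouse for 148 genes (1.13%) and below for 168 (1.28%). Over the 13136 genes the log2 fold change had a median of −0.01, with quartiles of −0.18 and 0.16, and 52.2% of the genes were negative. In counts simulated for this comparison over 13136 genes, the test recovered 42 of 100 genes changed 2-fold and 83 of 100 changed 4-fold. It made 3 false calls. The changed genes had a mean above 1 CPM. The simulated spread followed the trend with expression and had no part particular to a gene. Recovery of lower or more variable genes was not simulated.

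*Ccl24*, which encodes an eosinophil-attracting chemokine of tissue and alternatively activated macrophages, rose with a log2 fold change of 2.33 ± 0.32 (adjusted p = 0.00906 from edgeR). It was at 1.11, 1.68, 1.57 and 2.51 CPM in IL10RAKO and 7.4, 8.65, 8.15 and 10.5 CPM in DKO mice, so the lowest DKO mouse was above the highest IL10RAKO mouse. In WT mice it was at 20.5 to 48.7 CPM, so DKO lay between IL10RAKO and WT mice. *Thbs3*, which encodes the matrix protein thrombospondin 3, fell (adjusted p = 0.0176 from edgeR). Its level was 0.905, 0.934, 1.21 and 0.528 CPM in IL10RAKO mice and 0.0552, 0, 0.0703 and 0.0494 CPM in DKO mice. In all, 60 reads lay on it in IL10RAKO and 3 in DKO mice, a ratio of 21 with an exact 95% interval of 6.85 to 105 that covers counting error only. The call of *Thbs3* rests on few reads and did not hold when any of the DKO mice was left out (adjusted p = 0.0622 to 0.115 from edgeR) or without IL10RAKO mouse 1 or 3. *Ccl24* did not pass without IL10RAKO mouse 1 or 3 either (adjusted p = 0.053 and 0.0649 from edgeR).

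The other 2 reported genes have no function that is known here. *2010315B03Rik* (chromosome 9, 124291804 to 124312696 in GRCm38) rose from 9.74, 11, 9.86 and 10.6 CPM in IL10RAKO to 34.2, 28, 26.8 and 30.2 CPM in DKO mice, a log2 fold change of 1.53 ± 0.17 (adjusted p = 0.00085 from edgeR). It lies 178 kb from *Ccr2* and was at 8.78 to 11.1 CPM in WT mice. *G530011O06Rik* (chromosome X, 169975043 to 169978917) fell from 29.9, 20.7, 28.9 and 25.5 CPM to 3.37, 4.92, 6.68 and 4.5 CPM, a log2 fold change of −2.43 ± 0.21 (adjusted p = 6.87e-05 from edgeR). It was at 46.5 to 58.1 CPM in WT mice, and both groups lay below that range. For neither gene did the values of the genotypes overlap.

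**Figure D1:**
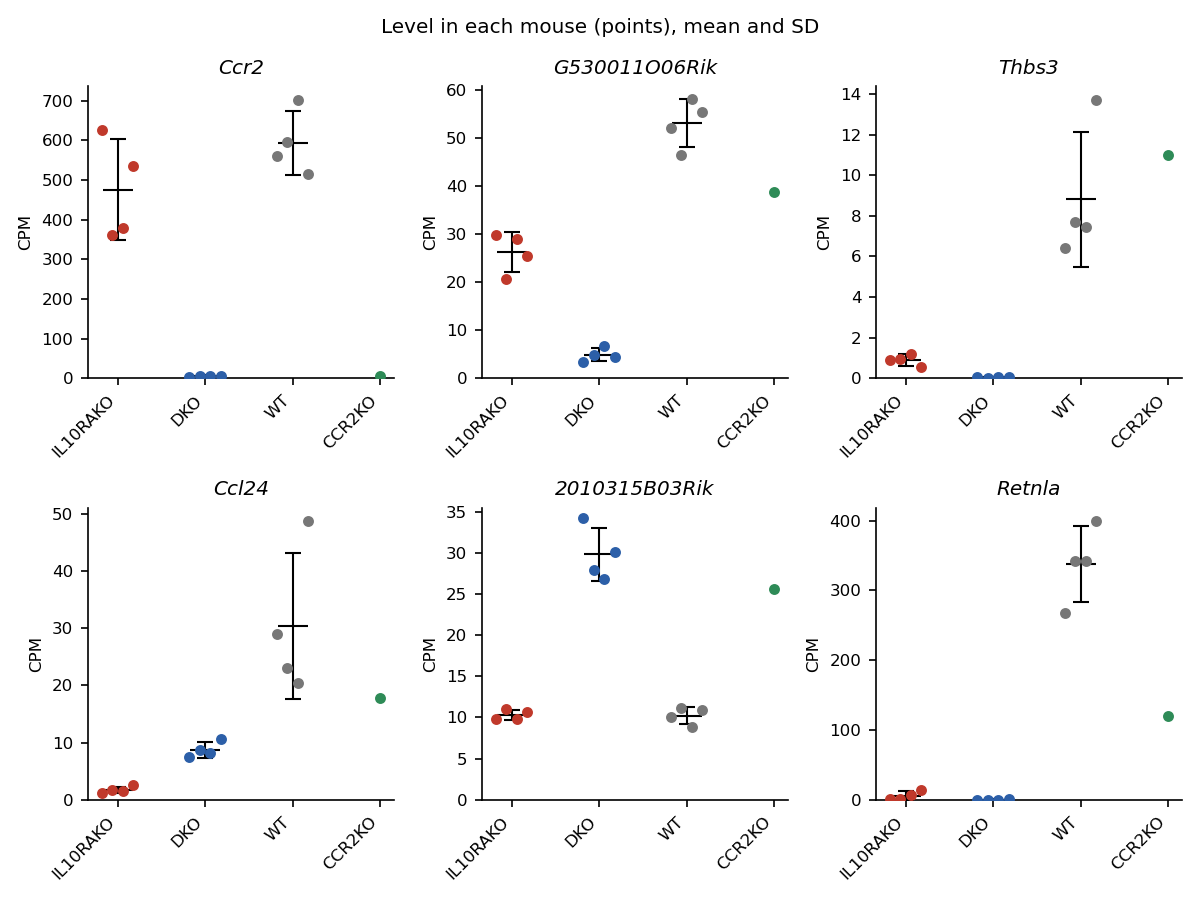
Level of 6 genes in CPM (vertical axes from 0) in each mouse of the IL10RAKO, DKO, WT and CCR2KO genotypes. Points are mice, and the bar and whiskers give the mean and SD of 4 mice. *Retnla* did not pass the adjusted test and is shown beside the 5 genes that did, with all DKO values at or below 0.692 CPM.

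Below the threshold, the genes with the smallest p-values and no overlap between genotypes were mostly lower in DKO. *Lifr*, which encodes the receptor for leukemia inhibitory factor, was at 23.4, 19.9, 19.9 and 23.6 CPM in IL10RAKO and 12, 12.1, 12.7 and 11.4 CPM in DKO mice, a log2 fold change of −0.85 ± 0.15 (adjusted p = 0.109 from edgeR). *Ccr1*, a receptor for CCL3, CCL5, CCL6 and CCL9, was at 530.1, 761, 497 and 711 CPM in IL10RAKO and 294, 359, 282 and 317 CPM in DKO mice, a log2 fold change of −1.0 ± 0.18 (adjusted p = 0.125 from edgeR). The WT range of *Ccr1* was 217 to 351 CPM, which holds or borders the DKO values, whereas *Lifr* was highest in WT at 75.3 to 99.8 CPM. *Tppp3*, which encodes a tubulin-binding protein, had −1.14 ± 0.20 (adjusted p = 0.109 from edgeR), and *Tmem176b*, a membrane protein of myeloid cells, had −1.0 ± 0.22 (adjusted p = 0.387 from edgeR). DESeq2, run on the same libraries, called 24 genes (3 higher in DKO, 21 lower), and these 4 genes, *Clec10a*, *F13a1* and *Pparg* were among them. On the higher side the genes of smallest p-value were ERDR1 (1.55), *Stx1a* (1 read in IL10RAKO and 45 in DKO mice), *Susd2* (1.34), *Slco2a1* (3.51), *Ube2m* (0.60) and *Plpp3* (0.97), and none passed in edgeR. The counts of ERDR1 are uncertain because its reads can be shared between near-identical copies.

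Gene sets were described by the counts and medians of their tested members, and lists can share genes. For every list, counts of lower members are to be read beside 52.2% of all genes. Counts at an unadjusted p-value under 0.05 are to be read beside 1.91% of all genes lower and 1.04% higher. Among 34 lists, beside which ribosomal protein genes and genes near *Ccr2* were kept as sets of their own, those of perivascular-type macrophages, type I interferon response, dendritic cells and Ly6C-high monocytes had the lowest medians, and neutrophil markers the highest. Of the list members, *Ccl24* and *Thbs3* passed the adjusted test, so the sets are described by values and not as changes.

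**Figure D2:**
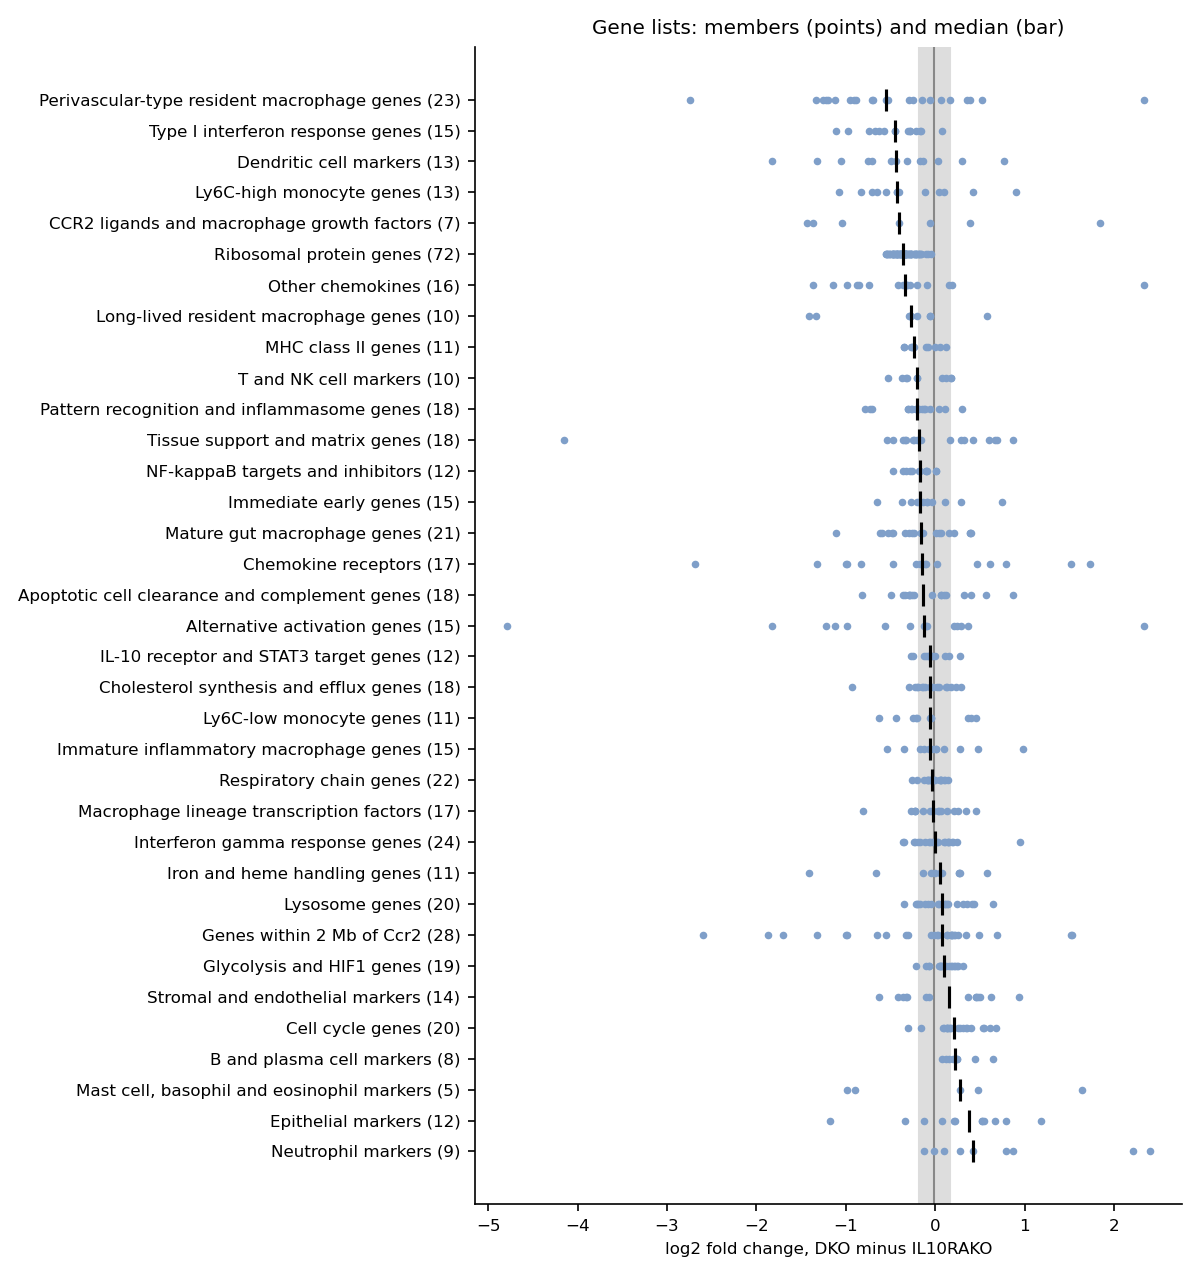
Log2 fold change between DKO and IL10RAKO (horizontal axis) of the tested members of each list, with the number tested in parentheses. Points are genes, black bars are list medians, and the grey band and line give the quartiles (−0.18 and 0.16) and the median (−0.01) of all 13136 tested genes.

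Monocyte genes were examined first, as the program that CCR2 serves. Of the 13 tested Ly6C-high monocyte genes, 9 were lower in DKO and the median log2 fold change was −0.42. A 95% interval within −1 and 1 was found for 2 of the 13, beside 63.4% of all genes. In this list 3 members were lower at an unadjusted p-value under 0.05 and 0 higher, beside 1.91% and 1.04% of all genes. *Ly6c2* was at 95.1, 177, 38.4 and 125 CPM in IL10RAKO and 89, 75.3, 74.9 and 87.8 CPM in DKO mice (log2 fold change −0.41 ± 0.32, adjusted p = 1 from edgeR). The IL10RAKO values spread over a wider range that holds all DKO values. *Plac8*, another gene of blood monocytes, was at 539, 771, 224 and 437 CPM in IL10RAKO and 445, 286, 303 and 429 CPM in DKO mice, with DKO again inside the range of IL10RAKO mice. *S100a4*, which encodes a calcium-binding protein of newly arrived monocytes, was at 32, 50.4, 27.2 and 26.6 CPM in IL10RAKO and 25.5, 21.2, 20.2 and 19.5 CPM in DKO mice without overlap, a log2 fold change of −0.66 ± 0.24 (adjusted p = 1 from edgeR). *Fn1*, fibronectin, was the member furthest in the other direction (0.90 ± 0.50). *Ms4a4c* had −0.56 ± 0.24 and *Ifitm6* had −0.83 ± 0.38, each with overlap.

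As a set, the Ly6C-high monocyte genes depended on which IL10RAKO mouse was present. Their level, the mean log2 CPM of the tested members, was 5.88, 6.47, 4.78 and 6.05 in IL10RAKO mice 1 to 4 and 5.56, 5.74, 5.72 and 5.69 in DKO mice, against 4.03 to 4.66 in WT mice. IL10RAKO mice 1, 2 and 4 were above and IL10RAKO mouse 3 below all DKO mice. Without IL10RAKO mouse 2 the median log2 fold change of the list was −0.07, and over all mice left out in turn it ran from −0.68 to −0.07. The Ly6C-low monocyte genes, which mark patrolling monocytes, had a median of −0.06 over 11 tested genes, with 0 at an unadjusted p-value under 0.05. The genes of immature inflammatory macrophages had a median of −0.05 over 15 genes, also with 0. Among them *Il1b* was at 10048, 15547, 9258 and 15194 CPM in IL10RAKO and 8366, 12581, 8879.7 and 9463 CPM in DKO mice. *Nos2*, the inducible nitric oxide synthase, was at 191, 779, 118 and 409 CPM in IL10RAKO and 452, 630.1, 1129 and 746 CPM in DKO mice, with a 95% interval of the log2 fold change of −0.43 to 2.39. The level of the inflammatory list was 7.98, 9.54, 7.78 and 8.89 in IL10RAKO and 8.70, 9.16, 8.89 and 8.83 in DKO mice, and both groups lay above WT mice (4.78 to 5.18).

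**Figure D3:**
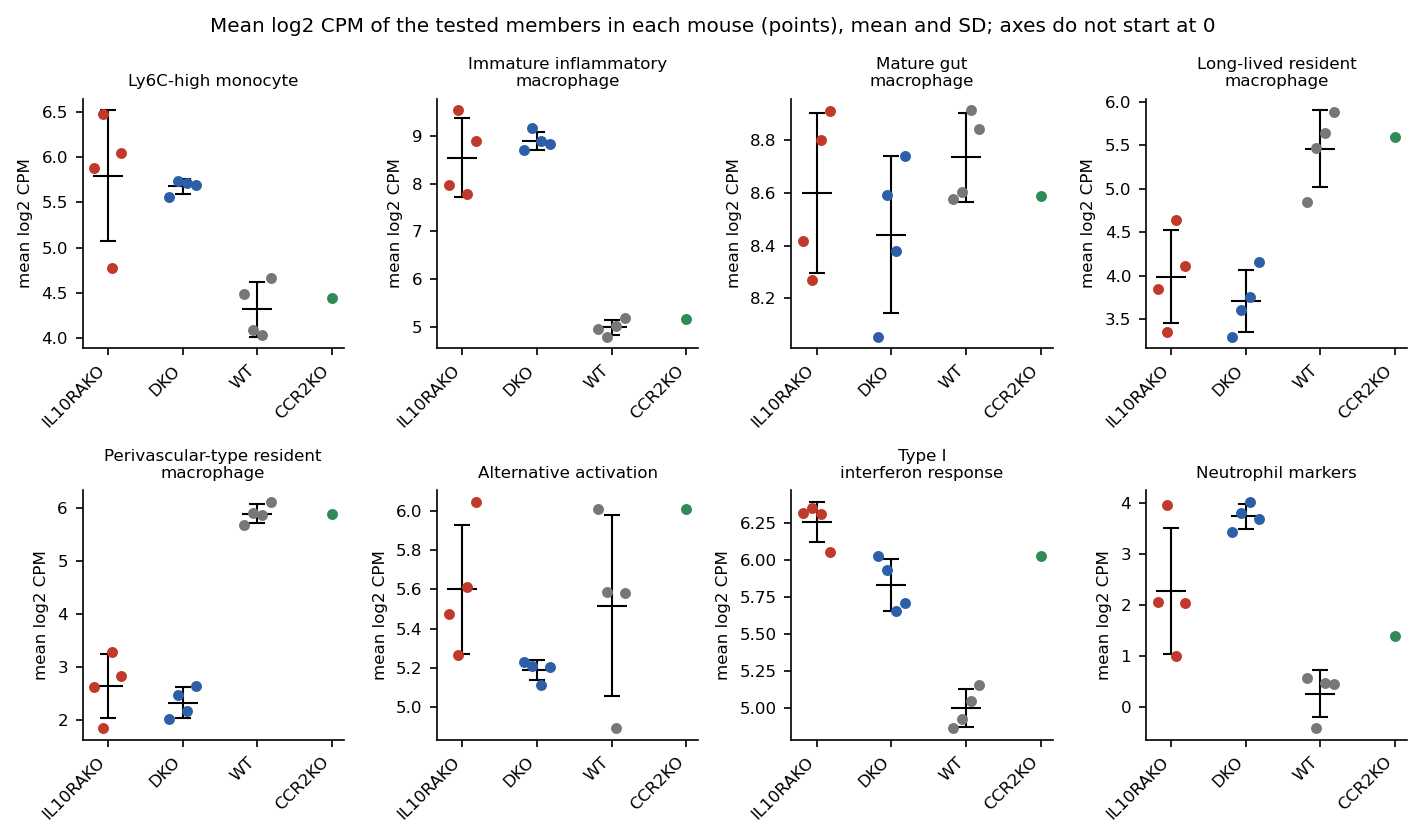
Level of 8 lists (mean log2 CPM of the tested members, axes not starting at 0) in each mouse. Points are mice, and bar and whiskers give the mean and SD of 4 mice, with 1 CCR2KO mouse. For Ly6C-high monocyte genes the DKO mice sit within 5.56 to 5.74 while IL10RAKO mice run from 4.78 to 6.47.

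The genes of mature and resident macrophages were described next. Mature gut macrophage genes had a median log2 fold change of −0.16, and 13 were lower in DKO of the 21 tested. Of these 14 had a 95% interval within −1 and 1, beside 63.4% of all genes. In this list 3 were lower at an unadjusted p-value under 0.05 and 0 higher, beside 1.91% and 1.04% of all genes. With an offset that removes each library's trend with gene length, 1 member was lower at that threshold. *Apoe*, which encodes a lipid-carrying protein of mature macrophages, was at 10245, 6065, 14123 and 15808 CPM in IL10RAKO and 6227, 8751, 6739 and 8336 CPM in DKO mice (log2 fold change −0.62 ± 0.25). *Il10* was at 20.9, 82.8, 129 and 107 CPM in IL10RAKO and 25.3, 75.3, 30.6 and 26.3 CPM in DKO mice, with the lowest value in an IL10RAKO mouse. *Cx3cr1*, the fractalkine receptor gained during maturation, was at 252, 81.3, 275 and 327 CPM in IL10RAKO and 135, 181, 143 and 217 CPM in DKO mice (log2 fold change −0.47 ± 0.31, adjusted p = 1 from edgeR). *Adgre1*, which encodes F4/80, had −0.48 ± 0.29, and *Mertk*, a receptor for dying cells, had 0.40 ± 0.30.

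Long-lived resident genes had a median of −0.28 over 10 tested genes. Here 9 were lower in DKO and 1 was lower at an unadjusted p-value under 0.05, beside 52.2% and 1.91% of all genes. *Timd4* was at 69.3, 13.6, 17.7 and 13.7 CPM in IL10RAKO and 42, 13.2, 18.8 and 19.9 CPM in DKO mice, and in both groups mouse 1 was the highest. *Cd4* was at 46, 42.7, 101 and 58.3 CPM in IL10RAKO and 44.1, 60.2, 46.9 and 86.6 CPM in DKO mice, a log2 fold change of −0.06 with a 95% interval of −0.64 to 0.52. *Cd163*, the scavenger receptor for hemoglobin, was at 2.57, 0.872, 8.29 and 3.76 CPM in IL10RAKO and 1.38, 1.25, 2.53 and 0.84 CPM in DKO mice (log2 fold change −1.41 ± 0.54, unadjusted p = 0.0195 from edgeR), against 77.1 to 159 CPM in WT mice. Without IL10RAKO mouse 3 the median of the list was −0.01. Its level was 3.85, 3.36, 4.64 and 4.11 in IL10RAKO and 3.30, 3.61, 3.76 and 4.16 in DKO mice, below the WT mice (4.85 to 5.88).

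The perivascular-type list had the lowest median, −0.55 over 23 tested genes, with 17 lower in DKO beside 52.2% of all genes. For 3 of the 23 the 95% interval lay within −1 and 1, beside 63.4% of all genes. The list holds *Ccl24*, the 1 member that passed, which rose, and 6 members that were lower at an unadjusted p-value under 0.05 beside 1.91% of all genes. With the length offset the median was −0.47 and 4 members were lower at that threshold. *F13a1*, which encodes the A chain of coagulation factor XIII, was at 17.5, 15.5, 16.9 and 24.8 CPM in IL10RAKO and 7.67, 11.6, 13 and 8.16 CPM in DKO mice without overlap (log2 fold change −0.89 ± 0.20, adjusted p = 0.387 from edgeR). *Mrc1*, the mannose receptor CD206, was at 58.7, 49.1, 226 and 117 CPM in IL10RAKO and 22.9, 56.4, 53.8 and 73.9 CPM in DKO mice with overlap (log2 fold change −1.12 ± 0.43). The remaining 4 were *Clec10a*, *Cd209b*, *Cbr2* and *Fcrls*, of which *Cd209b* and *Cbr2* were at 0 to 0.221 and 0.442 to 1.68 CPM in DKO mice. The log2 fold change of *F13a1* against WT was −4.20 in IL10RAKO (adjusted p = 1.79e-07 from edgeR) and −5.09 in DKO mice (adjusted p = 1.19e-08), comparisons that share the WT mice. Against WT, 8.7% of all genes rose and 7.1% fell in IL10RAKO mice, and 9.23% rose and 9.22% fell in DKO mice. *Lyve1* and *Folr2* were at 0.0623 to 3.84 and 0.374 to 2.63 CPM in IL10RAKO, and at 0 to 2.72 and 0.281 to 1.19 CPM in DKO mice, against 92 to 129 and 47.7 to 79.3 CPM in WT mice. The list level of 2.62, 1.85, 3.28 and 2.83 in IL10RAKO and 2.03, 2.48, 2.17 and 2.65 in DKO mice overlapped and lay below WT mice (5.67 to 6.11), and the median ran from −0.91 to −0.20 when mice were left out in turn, lowest without IL10RAKO mouse 2.

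Genes of alternative activation, the program that IL-4 and IL-13 drive through STAT6, had a median of −0.13 over 15 genes. *Ccl24* was up and 4 members were lower at an unadjusted p-value under 0.05, beside 1.04% and 1.91% of all genes. *Retnla*, a secreted protein typical of that program, was at 0.766, 1.56, 6.22 and 14.1 CPM in IL10RAKO and 0, 0, 0 and 0.692 CPM in DKO mice (log2 fold change −4.79 ± 0.98, adjusted p = 0.284 from edgeR). It was detected in 1 of 4 DKO mice (14 reads) and in 4 of 4 IL10RAKO mice (373 reads), and was at 267 to 399 CPM in WT mice. The fitted fold change rests on the reads of that DKO mouse and ran from −9.63 to −3.84 with each mouse left out. *Clec10a*, a galactose-binding lectin, was at 77.6, 35.1, 39.7 and 46.8 CPM in IL10RAKO and 26.4, 23.5, 17.4 and 17.9 CPM in DKO mice without overlap (log2 fold change −1.22 ± 0.24, adjusted p = 0.208 from edgeR). *Ccl24* and *Retnla* thus had fold changes of opposite sign within this list. The level of the list was 5.48, 5.27, 5.61 and 6.05 in IL10RAKO and 5.23, 5.21, 5.11 and 5.21 in DKO mice, without overlap between the groups. That level includes *Retnla*, detected in 1 of 4 DKO mice, and was not computed without it. A separation of the other members as a set is therefore not shown. Of 36 levels of lists and sets, only that of alternative activation, with *Retnla* in it, and the type I interferon level had no overlap, which was not tested. A STAT6-type site, TTC and GAA separated by any 4 bases and searched on both strands, lay in the 250 bases before the start of *Retnla*, of 3 of the 9 list members with a RefSeq promoter (GRCm38.p6) and of 6.76% of all 27025 genes with one. The 60 bases around the *Retnla* match are shown because this gene had the lowest value of the list, with the match in capitals, and lie at chr16:48842439-48842498 on the plus strand.
*Retnla*: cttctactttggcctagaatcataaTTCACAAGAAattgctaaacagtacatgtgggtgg

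The 3 CCR2 ligand genes *Ccl2*, *Ccl7* and *Ccl12* had lower values in DKO mice and did not pass the adjusted test. *Ccl2* was at 33.8, 33.7, 95.6 and 43.3 CPM in IL10RAKO and 13.7, 24.4, 16.7 and 21.7 CPM in DKO mice without overlap (log2 fold change −1.43 ± 0.36, adjusted p = 0.705 from edgeR). *Ccl7* was at 18.8, 25.7, 79.9 and 42.9 CPM in IL10RAKO and 13.7, 16.6, 12.4 and 22.3 CPM in DKO mice (log2 fold change −1.36 ± 0.40), and *Ccl12* at 10.5, 16.7, 27.1 and 24.7 CPM in IL10RAKO and 9.17, 9.52, 7.66 and 11.9 CPM in DKO mice (log2 fold change −1.04 ± 0.40). IL10RAKO mouse 3 had the highest value of all 3 ligands, and the log2 fold change of *Ccl2* ran from −1.59 to −0.93 over all alternatives. In WT mice *Ccl2* was at 122 to 301 CPM, above both groups. *Ccl8*, the other chemokine of the list, was at 24.4, 49.8, 28.2 and 57.4 CPM in IL10RAKO and 45.3, 45.5, 46.6 and 70.7 CPM in DKO mice (log2 fold change 0.38 ± 0.30). The growth factor genes in the same list did not pass, and *Csf1* had a log2 fold change of −0.06 (95% interval −0.91 to 0.79). The list of ligands and growth factors had a median of −0.41 over 7 genes, which ran from −0.95 to −0.18 with each mouse left out.

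Of 16 other chemokine genes, *Ccl24* rose, 13 were lower in DKO with a median of −0.34, and 4 were lower at an unadjusted p-value under 0.05 (−0.26 and 3 with the length offset). Over all genes 52.2% were lower, and 1.91% were lower at that threshold. *Ccl6* was at 315, 266, 209.9 and 352 CPM in IL10RAKO and 168, 181, 135 and 149 CPM in DKO mice without overlap (log2 fold change −0.85 ± 0.20, adjusted p = 0.436 from edgeR). *Ccl9*, its neighbour on chromosome 11 and, like it, a ligand of CCR1, was at 81.1, 215, 189 and 219.6 CPM in IL10RAKO and 55.1, 89.3, 64.9 and 64.1 CPM in DKO mice (log2 fold change −1.36 ± 0.32), where only IL10RAKO mouse 1 came near the DKO mice. *Ccl3* and *Ccl4*, which attract monocytes and T cells, had −0.88 ± 0.35 and −1.14 ± 0.43. With DESeq2, *Ccl2*, *Ccl6*, *Ccl9* and *Ccr1* were among the 24 genes called. Of 17 tested chemokine receptor genes, 2 were lower at an unadjusted p-value under 0.05 (*Ccr1* and *Xcr1*) and 1 higher (*Ccr9*), and the median was −0.15.

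The interferon lists differed in their medians. Type I interferon response genes had a median of −0.45, with 14 of 15 lower in DKO, and 6 were lower at an unadjusted p-value under 0.05 beside 1.91% of all genes. Interferon gamma response genes had a median of 0.00 over 24 genes, with 12 lower and 0 at that threshold in either direction. *Ifit1*, an RNA-binding antiviral protein, was at 39.5, 37.2, 86.3 and 27.5 CPM in IL10RAKO and 31.6, 26.5, 19.8 and 18.6 CPM in DKO mice (log2 fold change −0.98 ± 0.33, adjusted p = 1 from edgeR). *Ifit2* was at 131, 133, 144 and 86.3 CPM in IL10RAKO and 87.4, 93.6, 82.4 and 69.4 CPM in DKO mice (log2 fold change −0.57 ± 0.19), and *Ifit3*, which can share reads with the near-identical *Ifit3b*, was at 77.5, 36.6, 61.9 and 41.5 CPM in IL10RAKO and 46.9, 32.3, 30.4 and 26.5 CPM in DKO mice. *Isg15*, a ubiquitin-like modifier, was at 179, 272, 264 and 181 CPM in IL10RAKO and 196, 177, 138 and 147 CPM in DKO mice (log2 fold change −0.45 ± 0.19), and *Rsad2*, which encodes viperin, at 59.8, 158, 167 and 74.9 CPM in IL10RAKO and 61.5, 95.8, 67.5 and 49.9 CPM in DKO mice. Values overlapped between the genotypes for each of these 5 genes, and 0 of the 15 passed the adjusted test.

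The level of the type I interferon list was 6.32, 6.35, 6.31 and 6.06 in IL10RAKO and 6.03, 5.93, 5.66 and 5.71 in DKO mice. The groups did not overlap, DKO mouse 1 and IL10RAKO mouse 4 being the closest pair, and both groups were above the 4 WT mice (4.86 to 5.15). Of 36 levels of lists and sets, that of alternative activation, with *Retnla* in it, was the other without overlap. The lists were chosen with earlier results known, and this separation was not tested. With the length offset the median was −0.32, 14 of 15 were again lower and 5 were at an unadjusted p-value under 0.05. The interferon-stimulated response element, through which type I interferon acts on its target genes, was searched as GAAA, any 2 bases and GAAA on both strands of the 250 bases before each start. It was found for 5 of the 10 type I list members with a RefSeq promoter and for 8 of the 18 interferon gamma list members, beside 3.46% of all genes. The 60 bases around it are shown for 4 members at an unadjusted p-value under 0.05, with matches in capitals and overlapping in *Isg15*. They lie in GRCm38.p6 at chr19:34640760-34640819 (*Ifit1*, plus), chr19:34583348-34583407 (*Ifit3*, plus), chr4:156200862-156200921 (*Isg15*, minus) and chr12:26456538-26456597 (*Rsad2*, minus), and each is written along the strand of its gene.
*Ifit1*: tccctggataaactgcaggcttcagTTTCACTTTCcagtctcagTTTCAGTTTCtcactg
*Ifit3*: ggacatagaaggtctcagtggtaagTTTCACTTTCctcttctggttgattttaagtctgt
*Isg15*: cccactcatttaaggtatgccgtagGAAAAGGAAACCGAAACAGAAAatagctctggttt
*Rsad2*: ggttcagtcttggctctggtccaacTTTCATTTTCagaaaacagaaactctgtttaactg

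**Figure D4:**
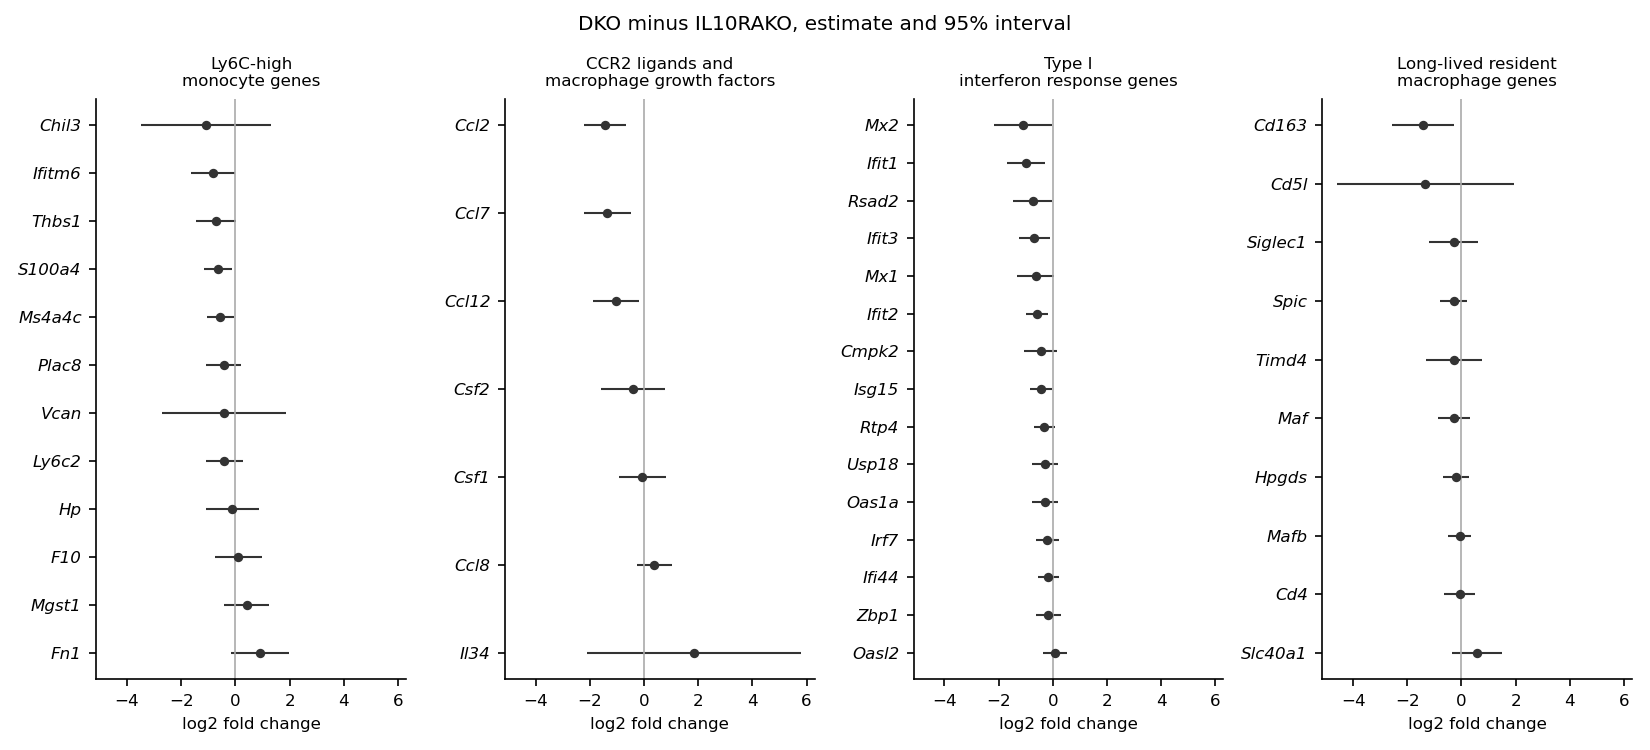
Log2 fold change between DKO and IL10RAKO (horizontal axis) of the tested members of 4 lists, with 12 of the 13 Ly6C-high monocyte genes drawn. Points are estimates from edgeR and lines are 95% intervals. For type I interferon genes 14 of 15 points lie below 0, and for the long-lived resident genes 9 of 10 do.

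Other inflammatory lists lay closer to the median of all genes. NF-kappaB targets and inhibitors had a median of −0.17 over 12 genes, each with a 95% interval within −1 and 1, and 10 of the 12 were lower in DKO. Genes around the IL-10 receptor and STAT3 had a median of −0.06, with 0 of 12 at an unadjusted p-value under 0.05. *Tnf* was at 336, 834, 1639 and 1048 CPM in IL10RAKO and 589.9, 985, 508 and 575 CPM in DKO mice, where IL10RAKO mice held both the lowest and the highest value. MHC class II genes had a median of −0.23, with all 11 intervals within −1 and 1. Of these 11 genes 9 were lower in DKO, 2 of them at an unadjusted p-value under 0.05. Pattern recognition and inflammasome genes had a median of −0.20, with 15 of 18 lower beside 52.2% of all genes. The 2 lower at an unadjusted p-value under 0.05, beside 1.91% of all genes, were *Casp4* (−0.73 ± 0.30) and *Il18* (−0.70 ± 0.29).

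Among effector functions, the complement genes ran in both directions. *C3* was at 331, 843, 461 and 594 CPM in IL10RAKO and 380.0, 925, 1336 and 1439.7 CPM in DKO mice, a log2 fold change of 0.87 ± 0.38, and *Cfb*, complement factor B, was at 1606, 1435, 626 and 1704 CPM in IL10RAKO and 1729, 2003, 1977 and 2255 CPM in DKO mice without overlap (0.57 ± 0.26). *C3ar1*, the receptor for the C3a fragment, had −0.82 ± 0.25. The list of apoptotic cell clearance and complement genes had a median of −0.14. In it 2 of 18 were higher and 2 lower at an unadjusted p-value under 0.05, beside 1.04% and 1.91% of all genes. Lysosome genes had a median of 0.07, iron and heme handling genes 0.05, tissue support and matrix genes, which hold *Thbs3*, −0.18 and lineage transcription factors −0.02. *Id3*, a regulator of resident macrophage identity, was the 1 transcription factor at an unadjusted p-value under 0.05 (−0.80 ± 0.24), with 75.9, 131, 73.2 and 92 CPM in IL10RAKO and 47.2, 77.3, 47.9 and 40.8 CPM in DKO mice.

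Transcript length was checked because libraries from little RNA can differ in how well they cover long transcripts. The length slope of a library, the change in its log2 CPM relative to the 8 mice for each doubling of exon length, was −0.06, −0.04, 0.09 and −0.10 in IL10RAKO and −0.09, 0.03, 0.11 and 0.06 in DKO mice. The ranges overlapped, and the difference between the means (0.05) was not significant (two-sided exact permutation test, p = 0.4, adjusted p = 0.6 over 6 library measures, where 4 mice against 4 cannot go below 0.0286). The log2 fold changes nevertheless followed length across genes. In the tenth of genes with the shortest exons (56 to 1644 bases) the median log2 fold change was −0.14 and 69.9% of genes were lower in DKO, while in the tenth with the longest (9648 to 123179 bases) the median was 0.07 and 38.4% were lower. An offset that removes each library's length trend was therefore tried, and values with it are given for several lists. The slope per 10 points of GC content had an adjusted p = 0.6 in the exact permutation test, as did the share of reads on ribosomal protein genes (0.878% in IL10RAKO and 0.733% in DKO mice).

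**Figure D5:**
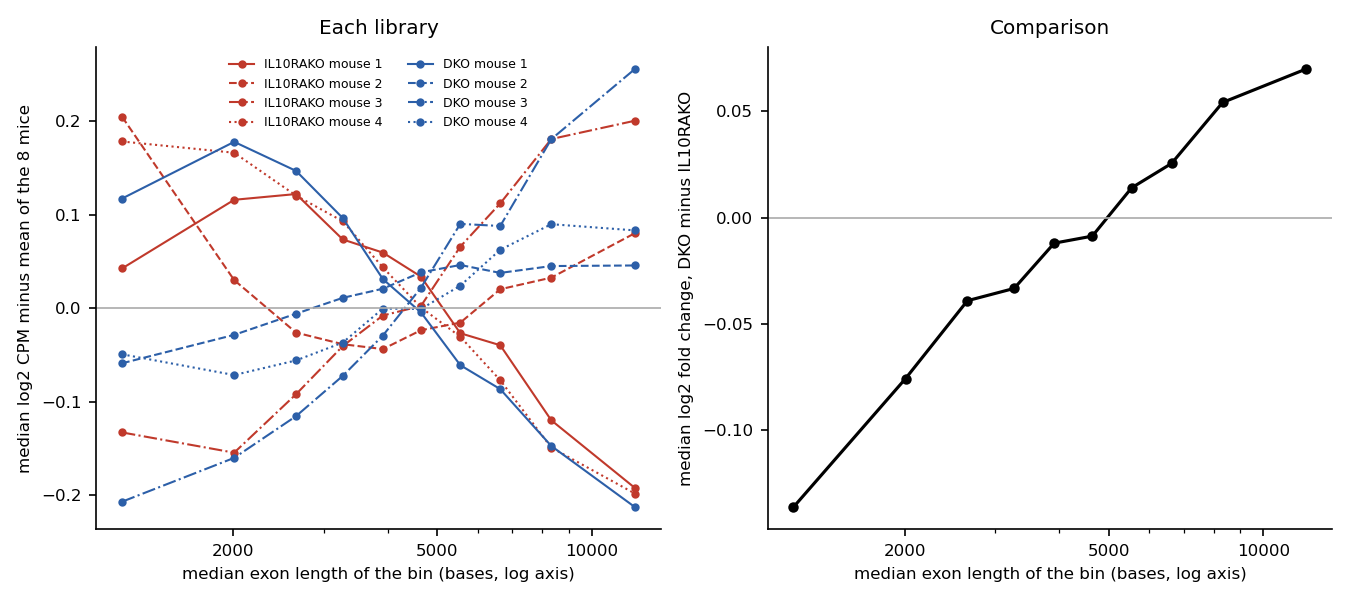
Genes were split into 10 bins by exon length (log axis, in bases). The left panel plots, for each of the 8 libraries, the median log2 CPM of each bin minus the mean of the 8 mice, with lines of both genotypes running in both directions. The right panel plots the median log2 fold change of each bin between DKO and IL10RAKO, which runs from −0.14 in the shortest to 0.07 in the longest genes.

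Metabolic lists had medians close to that of all genes. All 22 respiratory chain genes had an interval within −1 and 1 and a median of −0.04. Cholesterol genes had a median of −0.06. Glycolysis and HIF1 genes had 0.09, with 17 of 19 intervals within −1 and 1. Of these 19 genes 4 were lower in DKO, beside 52.2% of all genes, and their median ran from −0.06 to 0.32 with each mouse left out. Cell cycle genes had 18 of 20 members higher in DKO, while 52.2% of all genes were lower. With 0 at an unadjusted p-value under 0.05, the list had a median of 0.21. Without DKO mouse 1 that median was 0.03. Immediate early genes had a median of −0.17, with *Atf3* (−0.65 ± 0.19) and *Ier2* (−0.37 ± 0.16) lower at an unadjusted p-value under 0.05. Ribosomal protein genes, which are short (median exon length 1806 bases), were lower in DKO in 72 of 72 cases, with a median of −0.36, 0 that passed and 10 at an unadjusted p-value under 0.05. With the length offset the median was −0.29, 71 of 72 were lower and 4 were at that threshold. The same offset gave medians of −0.37 for the Ly6C-high monocyte list, −0.30 for the list of CCR2 ligands and growth factors, −0.18 for MHC class II genes and 0.63 for neutrophil markers. With it 9 of 22 respiratory chain genes were lower in place of 15, and 1 immediate early gene was lower at an unadjusted p-value under 0.05 in place of 2. Without IL10RAKO mouse 2, which had the highest share of ribosomal protein reads, the median of these genes was −0.17.

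Markers of other cell types were measured in both groups, and none of their members passed the adjusted test. Neutrophil markers had the highest median, 0.42 over 9 tested genes, and 2 of the 9 were lower in DKO. The median was 0.97 without IL10RAKO mouse 2 and ran from 0.13 to 0.97 with each mouse left out. The 2 members higher at an unadjusted p-value under 0.05 were *Ltf* and *Mmp9* (log2 fold change 0.87), beside 1.04% of all genes. Other members were closer to the median of all genes, with *S100a8* at 0.28, *S100a9* at 0.10, *Retnlg* at −0.01 and *Csf3r* at −0.13. *Ltf*, lactoferrin of neutrophil granules, was at 0.418, 5.92, 0.202 and 0.727 CPM in IL10RAKO and 7.4, 18.1, 6.47 and 6.43 CPM in DKO mice (log2 fold change 2.40 ± 1.02, adjusted p = 1 from edgeR), and *Ngp*, another granule protein, at 0.278, 10.2, 0 and 0 CPM in IL10RAKO and 9.22, 21, 11 and 7.17 CPM in DKO mice. Without IL10RAKO mouse 2 the log2 fold changes were 4.42 for *Ltf* and 7.05 for *Ngp*, and *Ngp* passed (adjusted p = 0.0362 from edgeR). The list level was 2.06, 3.96, 1.00 and 2.04 in IL10RAKO and 3.43, 3.80, 4.02 and 3.68 in DKO mice, with IL10RAKO mouse 2 among the DKO mice, and −0.42 to 0.56 in WT mice. *Ly6g*, the antigen gated out, had at most 12 reads in any of the 12 libraries. Dendritic cell markers had a median of −0.44 over 13 genes, with 10 lower in DKO and 3 of them at an unadjusted p-value under 0.05. That median was −0.35 with the length offset, −0.25 without IL10RAKO mouse 1 and −0.14 with *Xist* as a covariate. *Clec9a* (log2 fold change 0.03), *Sirpa* (0.30) and *Fscn1* (0.77) were higher in DKO, with 0 at that threshold. The 3 lower members were *Xcr1*, which lies 240 kb from *Ccr2*, *Batf3* and *Cd209a*. *Xcr1* was at 6.47, 18.3, 12.4 and 7.2 CPM in IL10RAKO and 5.08, 3.05, 4.57 and 4.99 CPM in DKO mice and *Batf3* at 25.1, 17.9, 27.7 and 27.5 CPM in IL10RAKO and 17, 15.3, 9.63 and 16.3 CPM in DKO mice, both without overlap, while *Cd209a* was at 219, 46.1, 70.1 and 52.1 CPM in IL10RAKO and 52.7, 26.7, 16.2 and 13.5 CPM in DKO mice. The medians were −0.20 for T and NK cell, 0.22 for B and plasma cell, 0.28 for mast cell, basophil and eosinophil, 0.37 for epithelial and 0.15 for stromal and endothelial markers, with 0 members at an unadjusted p-value under 0.05 in each of these 5 lists. Single mice decided several of these values. Without DKO mouse 1 the medians were −0.26 for B and plasma cell, −0.57 for T and NK cell and −0.41 for mast cell, basophil and eosinophil markers. Stromal and endothelial markers had −0.23 without DKO mouse 4, and epithelial markers 0.74 without IL10RAKO mouse 2 and 0.10 without IL10RAKO mouse 3. The level of the B and plasma cell list was 6.17, 6.48, 6.78 and 5.33 in IL10RAKO and 7.34, 5.96, 6.50 and 5.70 in DKO mice. Ly6C-high monocyte genes ran from 4.78 to 6.47 in IL10RAKO mice. DKO mouse 1 was the highest of the 8 mice for B and plasma cell markers and also for cell cycle genes (5.19). The part of these other cell types in the results above was not tested.

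Genes beside the targeted locus were examined apart, because an allele made in another strain brings flanking sequence with it. Within 2 Mb of *Ccr2*, 39 genes were examined and 28 tested, with a median log2 fold change of 0.08 beside −0.01 for all genes. In this set 1 rose, *2010315B03Rik*, and 2 were higher and 4 lower at an unadjusted p-value under 0.05. DKO mice lay above IL10RAKO mice for 2 of the 28 genes and below for 3, beside 1.13% and 1.28% of all genes. *Ccr9*, a gut-homing receptor, was at 1.53, 1.68, 1.67 and 2.44 CPM in IL10RAKO and 8.23, 5.6, 4.29 and 2.92 CPM in DKO mice without overlap. *Slc6a20a* was near the floor, at 0.557, 0.872, 0.455 and 0.925 CPM in IL10RAKO and 0.11, 0.0623, 0 and 0.247 CPM in DKO mice. *Lars2*, which encodes a mitochondrial leucyl-tRNA synthetase, ranged from 118 to 1576 CPM in IL10RAKO and from 147 to 327 CPM in DKO mice. *Ccr1* and *Xcr1*, described above, belong to the same interval. In the CCR2KO mouse, which carries the same *Ccr2* loss with *Il10ra* intact, *2010315B03Rik* was at 25.6 CPM, *Ccr1* at 269.5 CPM and *Ccr9* at 4.49 CPM. WT mouse 4, which had the fewest reads and detected genes of the series, had *2010315B03Rik* at 45.7 CPM with *Ccr2* at 759 CPM. Its level of epithelial markers was 7.85, against 1.59 to 6.40 in the 4 WT mice of the fit. For chemokine receptors it was 1.16, against 3.17 to 3.57. The cause of the *2010315B03Rik* level in this 1 library was not tested.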

How the data were processed

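RNA was sequenced from macrophages of 14 mice, 8 of which enter the comparison. The deposited counts are whole reads per gene that the authors obtained with STAR 2.5.1b on mm10 (FASTQ files by bcl2fastq 2.20, per the submitters' processing notes). A second deposited table holds pseudocounts that the authors made with edgeR 3.34.0, treated as a score, and served only to see which libraries it includes. Whether strand was used and how shared reads were treated is not given in the sources used here.

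Counts were tested with edgeR 4.0.16 (R 4.3.3, quasi-likelihood in its legacy form, TMM, filterByExpr with a minimum count of 10 by genotype) over 12 libraries of 3 genotypes, with Benjamini-Hochberg adjustment over 13136 genes and a threshold of 0.05. DESeq2 1.42.0 and other settings were alternatives. Of 24982 listed genes, 24498 matched a symbol of the GENCODE annotation of GRCm38, and 43 matched through an older symbol given by RefSeq. Gene positions, exon lengths and GC content came from GENCODE. The script was tested on simulated counts. CPM is TMM-scaled, list levels use a prior count of 2, and errors are SE of the fit unless named. Library measures were compared by two-sided exact permutation over 70 relabelings, adjusted over 6 measures. The members and lists were chosen with earlier results of these data known. Named genes were the targeted genes, all that passed, the 6 in each direction with the smallest p-values among genes without overlap, up to 3 per list with the smallest p-values, defining markers, and genes without overlap within 2 Mb of *Ccr2*. *Cbr2*, *Cd209b*, *Fcrls*, *Ccl3*, *Ccl4*, *Ccl8*, *Csf1*, *Fn1*, *Isg15*, *Rsad2*, *Pparg*, *Lars2* and *Ly6g* were picked with their values in view. So were *S100a8*, *S100a9*, *Cxcr2*, *Mmp8*, *Retnlg*, *Csf3r*, *Clec9a*, *Sirpa* and *Fscn1*. Among the 6 genes passing the test 1, and some list members, are counted but not reported here. Replicates are separate mice, and sort days are not given, so p-values cover the spread between these mice. The share of mitochondrial reads was not used here.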

Additional observations from a re-analysis of the deposited data

Results flagged for a closer look

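In 194 groups of 4 mice or libraries, 1 value stood apart by Dixon's criterion in 11, and chance alone gives about 1 in 20. Among single genes, *Retnla* was at 0.692 CPM in DKO mouse 4 and at 0 in the other DKO mice. *Timd4* was at 69.3 CPM in IL10RAKO mouse 1, with the other IL10RAKO mice at 13.6 to 17.7. *Ccl9* was at 81.1 CPM in IL10RAKO mouse 1, below the other IL10RAKO mice. *Ltf* was at 18.1 CPM in DKO mouse 2, above the other DKO mice at 6.43 to 7.40.

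Among list levels (mean log2 CPM), IL10RAKO mouse 3 stood apart for interferon gamma response genes (7.86, the others from 8.36) and for cell cycle genes (4.82, the others up to 4.37). IL10RAKO mouse 4 stood apart for type I interferon response genes (6.06, the others from 6.31). DKO mouse 1 was low for iron and heme handling genes (7.06) and for tissue support and matrix genes (4.36), and had a read on 15450 genes, more than the other DKO mice. DKO mouse 4 stood apart for sex-linked markers (−0.15), being the 1 female by *Xist*.

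The CCR2KO mouse, 1 library outside every test, was set beside the 4 WT mice of the fit. *Ccl24* was at 17.8 CPM, below all 4 WT mice (20.5 to 48.7), whereas DKO lay above IL10RAKO mice. *Clec10a* was at 87.1 CPM, above all 4 WT mice (64.0 to 82.0), whereas DKO lay below IL10RAKO mice. These opposite directions were not tested. Single genes were flagged only for an opposite direction or, where they passed, for a level above WT mice. *G530011O06Rik* (38.8 CPM, WT from 46.5), *Retnla* (120, WT from 267) and *Tppp3* (123, WT from 154) were not flagged. They were below all 4 WT mice, as DKO lay below IL10RAKO mice. ERDR1 at 73.6 CPM was above those WT mice (up to 32.8), as DKO lay above IL10RAKO mice. *Ccr1* at 269.5 CPM lay within their range (217 to 351). In addition *2010315B03Rik* was at 25.6 CPM, above those 4 WT mice (8.78 to 11.1) and below WT mouse 4, left out of the fit, at 45.7 CPM.

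The list levels of the CCR2KO mouse were above those 4 WT mice for 9 of 36 lists and sets. WT mouse 4 was higher for Ly6C-low monocyte genes (5.07) and for glycolysis and HIF1 genes (6.74). Only levels above the WT mice were flagged, and the count was not tested against chance. Levels were below those 4 WT mice for lineage transcription factors (6.55, WT from 6.88) and immediate early genes (9.87, WT from 10.03). The 9 levels were 5.03 for Ly6C-low monocyte genes, 6.01 for alternative activation, 4.03 for chemokine receptors, 5.81 for other chemokines and 6.24 for interferon gamma response genes. They were 6.03 for type I interferon response genes, 6.71 for glycolysis and HIF1 genes, 6.83 for respiratory chain genes and 1.39 for neutrophil markers.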

How the results depend on the processing

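No paired analysis was possible because each mouse has 1 genotype and the labels give no replicate numbers. DESeq2 called 3 higher and 21 lower genes, all 6 of the main test among them. The number of higher genes was 1 with 13 libraries, WT mouse 4 added, and 1 with the bias-adjusted deviance of edgeR 4. With each mouse left out in turn, 1 to 3 genes were higher and 3 to 7 lower, with 10 in all without IL10RAKO mouse 2. *Ccr2* and *G530011O06Rik* passed in 23 of 23 settings, *2010315B03Rik* in 22 of 23, *Ccl24* in 20 of 23 and *Thbs3* in 13 of 21. Scaling by library totals moved the median of all genes to 0.05 and the genes at an unadjusted p-value under 0.05 from 137 higher and 251 lower to 218 and 168. The median of the CCR2 ligand and growth factor list was −0.72 with at least 10 counts in every library, −0.71 with only the 8 libraries, and −0.95 to −0.18 with a mouse left out. The mast cell, basophil and eosinophil list was at −0.30 with only the 8 libraries and at −0.41 to 0.35 with a mouse left out. Leaving out a mouse gave −0.41 to −0.12 for alternative activation, −0.25 to 0.14 for tissue support, −0.012 to 0.16 for genes near *Ccr2* and −0.21 to −0.030 for Ly6C-low monocyte genes. The causes of these shifts were not tested. At this depth and number of mice, 42 of 100 simulated 2-fold changes were recovered among genes above 1 CPM. A difference of that size could therefore be missed in a gene that did not pass.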
